A study of Mus musculus with 12 samples.

Results

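Nuclear-encoded oxidative phosphorylation (OXPHOS) genes were examined as targets of BMAL1 in control and senescent fibroblasts. They were taken by symbol from the protein-coding genes that GENCODE release M21 places on the nuclear chromosomes of mm10 (GRCm38). Symbols that start with Nduf, Uqcr, Atp5 or Sdh were kept, as were Cox symbols with a digit right after Cox, and Cyc1 and Cycs. This gave 109 gene entries with 108 symbols, because Atp5o has a second, readthrough entry that was not called in any library, out of 21851 protein-coding genes with an annotated start site. Sorted by symbol, 37 members fell to complex I, 4 to complex II, 9 to complex III, 18 to complex IV and 18 to complex V (ATP synthase). The others were the electron carrier Cycs and 22 assembly factors. Ndufa4 was counted with complex IV, Ndufa4l2 with complex I, and Atp5s and both Atp5o entries with ATP synthase. Not every member of a group is thus a separate subunit.

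BMAL1-ChIP-seq was performed on primary mouse adult fibroblasts (MAFs), which the study's methods describe as ear cells of adult female C57BL/6J mice. Cells of the control group received a sham irradiation, and cells of the senescent group received 20 Gy of X-rays (n = 3 libraries each). The study's methods give the irradiated cells several more weeks in culture before use, and state no such period for control cells. All cells, in both groups, were grown at 3% O2, given 100 nM dexamethasone for 2 hours to align their clocks, and collected 12 hours after that. Each library came as a list of peaks, with the false discovery rate (FDR) held at 1%. The lists of control replicates 1, 2 and 3 held 2794, 3349 and 10601 peaks, and those of senescent replicates 1, 2 and 3 held 4220, 9805 and 5053. They hold no reads and no expression, so depth is unknown, a peak that is not listed was not called but may be bound, and the fibroblast label could not be checked against marker genes. Nothing states whether the replicates came from separate mice, so p-values measure only the spread between these libraries.

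OXPHOS is the process by which mitochondria make ATP. Complexes I and II pass electrons from NADH and succinate to coenzyme Q, complex III passes them on to cytochrome c, complex IV hands them to oxygen, and ATP synthase uses the proton gradient built along the way. A few subunits are made from mitochondrial DNA and all others from nuclear genes, whose promoters are known as targets of NRF1, GABP (an ETS factor) and YY1. BMAL1 binds DNA with CLOCK at the E-box CACGTG, and clock control of mitochondrial respiration has been described in several tissues.

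Peaks of the 6 libraries were merged where they overlapped, and 83 merged regions were nearest to an OXPHOS start site, out of 16815 regions in all. Of these, 49 lay within 1000 bp of the start site (promoter regions) and 34 lay farther away (distal regions). The sequences below surround the E-boxes within 100 bp of the centre of the best-ranked peak, in OXPHOS regions called in at least 4 libraries. The Atp5h and Atp5l regions, with an E-box within 100 bp of other peak centres only, are not printed. The printed sequences were chosen for their E-box and their calls, so by themselves they show no contrast with the other regions, which are described later. Each is read 5′ to 3′ on the strand of the named gene in GRCm38, with CACGTG in capitals. The first 4 are promoter regions and the last 2 are distal regions, 20965 bp downstream of the Cycs start site and 21789 bp upstream of that of Ndufb6, both intergenic. The 2 short runs, of Ndufaf4 and Ndufa7, lie in UTR exons (that of Ndufa7 in an exon of its neighbour Rps28), and those of Atp5g1 and Uqcrq lie upstream of their genes.
Atp5g1, chr11:96075968-96076027: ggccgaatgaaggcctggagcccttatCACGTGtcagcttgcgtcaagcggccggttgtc
Uqcrq, chr11:53430987-53431046: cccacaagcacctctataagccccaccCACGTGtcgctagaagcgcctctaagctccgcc
Ndufaf4, chr4:24898118-24898147: cggtggcttctaCACGTGcgtagtgaacta
Ndufa7, chr17:33824488-33824517: gcggagaggagtCACGTGagcaggggatgc
Cycs, chr6:50545509-50545568: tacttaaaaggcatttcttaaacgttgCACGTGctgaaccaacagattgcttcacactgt
Ndufb6, chr4:40301179-40301238: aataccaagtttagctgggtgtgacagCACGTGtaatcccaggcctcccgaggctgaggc

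For contrast, the Ndufs7 promoter held the best-ranked OXPHOS region of the series and no E-box. The last 60 bases before its first start site are shown with the NRF1 motif in capitals (GCGC, any base and TGCGC, here on the opposite strand), which lay 29 bp from the centre of the best peak.
Ndufs7, chr10:80249061-80249120: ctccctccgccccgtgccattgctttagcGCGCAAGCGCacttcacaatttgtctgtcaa

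The remaining E-box region differs from the others in its number of E-boxes. It lies in an intron of Slc38a10, 15712 bp downstream of the start site of Ndufaf8, which encodes a complex I assembly factor, and it is a tandem repeat with 18 copies of CACGTG within 439 bp, at a median spacing of 30 bp. It held the largest number of E-boxes among the 16815 regions, of which 2 held 10 or more, while the median region held 0. The run below is 300 bases of the repeat, with 14 of the 18 E-boxes in capitals.
Ndufaf8, chr11:120114456-120114755: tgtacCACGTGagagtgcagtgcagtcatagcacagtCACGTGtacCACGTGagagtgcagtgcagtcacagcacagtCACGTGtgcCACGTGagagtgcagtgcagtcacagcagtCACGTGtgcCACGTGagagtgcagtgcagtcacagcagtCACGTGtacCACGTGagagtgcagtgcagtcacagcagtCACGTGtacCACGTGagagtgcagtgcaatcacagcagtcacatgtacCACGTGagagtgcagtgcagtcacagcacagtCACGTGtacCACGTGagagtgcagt

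To ask how often BMAL1 was called at OXPHOS genes, each peak was given to the nearest start site. In control replicates 1, 2 and 3, 13, 16 and 36 of the 109 genes had a peak (11.9%, 14.7% and 33.0%), where 9.32%, 10.8% and 25.3% of all protein-coding genes had one. In senescent replicates 1, 2 and 3, the counts were 21, 35 and 23 (19.3%, 32.1% and 21.1%), beside 14.4%, 26.5% and 16.6% of all genes. The share of OXPHOS genes followed the length of the list and lay above that of all genes in 6 of 6 libraries, or in 5 of 6 with the 2794 best-scoring peaks of every list, when senescent replicate 3 had 9.17% beside 10.3%. The average was 19.9% ± 11.5 for control and 24.2% ± 6.95 for senescent libraries (SD, n = 3 each), and this difference did not exceed the spread within the groups (exact permutation test, two-sided, p = 0.6). With 3 libraries a group the smallest p that this test allows is 0.1. In those lists of equal length the difference turned from 4.28 to -0.917 percentage points.

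Divided by the share of all genes in the same library, the OXPHOS share was 1.28, 1.36 and 1.30 in control and 1.34, 1.21 and 1.27 in senescent libraries. The groups overlapped and did not differ beyond their spread (1.31 ± 0.0385 against 1.27 ± 0.0618, SD, n = 3 each, exact permutation test, p = 0.4). The difference, -0.0394, was -0.188 in lists of equal length and -0.282 with the peaks above the median score, and the groups overlapped in both. Adjusted over the 5 planned tests, of which this is one, the p-values were between 0.667 and 0.7.

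Promoter peaks were then counted alone. A peak within 1000 bp of the start site was called for 6, 9 and 27 genes in control replicates 1, 2 and 3 (5.50%, 8.26% and 24.8%, beside 3.72%, 4.52% and 12.9% of all genes) and for 10, 26 and 13 genes in the senescent replicates (9.17%, 23.9% and 11.9%, beside 7.16%, 16.7% and 8.39%). The group means of 12.84% ± 10.4 and 14.98% ± 7.80 (SD, n = 3 each) did not differ beyond the spread (exact permutation test, p = 0.7), and the difference of 2.14 points turned to -1.22 in lists of equal length. The ratio to all genes was 1.48, 1.83 and 1.91 in control and 1.28, 1.43 and 1.42 in senescent libraries, so every control library lay above every senescent one. This ratio was computed after the other values had been seen. Its difference, -0.362 (senescent minus control), had the smallest p that the exact permutation test can give (p = 0.1), which is not below 0.05. In the same lists promoters took 32.1% ± 0.704 of all control peaks and 41.7% ± 2.80 of all senescent peaks (SD, n = 3 each), and 49.5% ± 10.4 and 56.7% ± 6.02 of the OXPHOS peaks. Whether the higher promoter share of all peaks had a part in the lower ratio was not tested. With promoters taken as 3000 bp the difference was -0.329 and the groups overlapped (exact permutation test, p = 0.3). It was -0.610 in lists of equal length (1.63 in control and 1.02 in senescent libraries) and -0.756 with the peaks above the median score (1.71 and 0.952), so the senescent promoter share was then close to that of all genes.

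**Figure D1:**
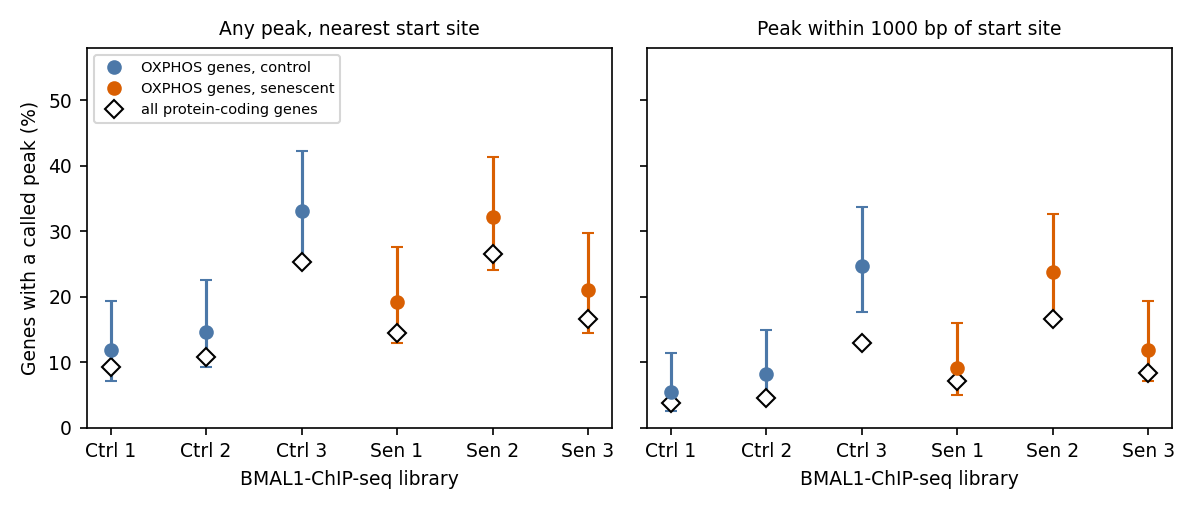
Percent of OXPHOS genes (filled circles, 109 genes) and of all protein-coding genes (open diamonds, 21851 genes) with a called BMAL1 peak in each library, for any peak nearest to the gene (left) and for peaks within 1000 bp of the start site (right). Bars are 95% Wilson intervals and cover counting error only. The OXPHOS value lies above that of all genes in each of the 6 libraries and both panels, and it is highest in control replicate 3 and senescent replicate 2, which have the longest lists.

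Over all libraries, 53 of the 109 OXPHOS genes (48.6%) were called at least once, beside 36.4% of all genes, and 56 were never called (51.4%, beside 63.6%). A promoter peak was called at least once for 39 genes (35.8%, beside 21.7%). There were 16 genes called in at least 4 libraries (14.7%, beside 11.8%) and 8 called in all 6 (7.34%, beside 5.14%). Calls were found in more senescent than control libraries for 20 genes (18.3%, beside 16.7%), in more control libraries for 11 (10.1%, beside 9.35%) and in as many of each for 22 (20.2%, beside 10.4%). The excess over the background thus lay mostly with genes called equally often in both groups, with no test made. Among these, Atp5d, Ndufv2, Cox14, Ndufb4, Ndufa10, Ndufaf7 and Uqcr11 were called only in control replicate 3 and senescent replicate 2, the longest list of each group. The part of list length in this class was not tested. Of the 53 genes, 19 were called in exactly 1 library (17.4% of the 109, beside 11.8%). Those came from control replicate 3 (9 genes), senescent replicate 2 (5 genes) and senescent replicate 3 (5 genes), with 14 of the 19 (73.7%) from the 2 longest lists, beside 85.2% of such calls over all genes.

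Calls were counted by complex, with no test between these small groups. At least 1 library called 15 of 37 complex I genes, 2 of 4 complex II genes, 6 of 9 complex III genes and 8 of 18 complex IV genes. The same held for 12 of 18 ATP synthase genes and 9 of 22 assembly factors, beside 36.4% of all genes. Calls in at least 4 libraries were found for 4 complex I, 2 complex III and 5 ATP synthase genes, for 4 assembly factors and for Cycs. They were found for 0 complex II and 0 complex IV genes, beside 11.8% of all genes. Complex I had 4, 5 and 10 genes called in control replicates 1, 2 and 3 and 6, 11 and 6 in the senescent replicates. Complex III had 2, 2 and 3 and then 3, 4 and 4 (means of 25.9% and 40.7%, each ± 6.42, SD, n = 3). Complex IV had 1, 0 and 4 and then 1, 3 and 4. ATP synthase had 2, 6 and 9 and then 6, 9 and 4, and assembly factors 3, 2 and 8 and then 4, 6 and 4. The groups overlapped or touched in each of these complexes.

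Among genes of the respiratory chain often used to represent their complexes, Ndufs1, Sdha, Uqcrc1 and Cox4i1 had no peak in any library. These are the large iron-sulphur subunit of complex I, the flavoprotein of succinate dehydrogenase, a core protein of complex III and a complex IV subunit. Cyc1, the cytochrome c1 of complex III, was called in senescent replicate 3 only, with a peak 45 bp upstream of its start site at rank percentile 76.3. Here the rank percentile gives the place of a peak in its own list by score, from 0 for the best to 100 for the last. Atp5b, the catalytic beta subunit of ATP synthase, was called in control replicate 3 only, at rank percentile 36.0. Atp5a1, the alpha subunit, was called in 1 control and 2 senescent libraries, in its own first kilobases and with values of 70.1, 78.3 and 32.0.

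In complex I, Ndufs7 and Ndufa6 were called in all 6 libraries, both at their promoters. Ndufs7 (ENSMUSG00000020153) encodes a core subunit that carries the last iron-sulphur cluster before coenzyme Q. Its peaks, in the region chr10:80248761-80249535 over the first exon, had rank percentiles of 6.84, 1.85 and 0.698 in control and 6.57, 2.34 and 3.22 in senescent libraries. All 6 were among the best-scoring peaks of their lists, and the groups overlapped (exact permutation test, p = 0.6, n = 3 each).

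Ndufa6 (ENSMUSG00000022450), an accessory subunit, was called at chr15:82354001-82354901. Its rank percentiles were 9.58, 70.3 and 8.41 in control and 3.34, 1.41 and 4.18 in senescent libraries. Every senescent value was better than every control value, and control replicate 2 stood far from the other two. The mean difference of -26.4 percentile points had an exact permutation p of 0.1 (n = 3 each). It gave 0.527 after Benjamini-Hochberg adjustment over the 1123 genes that were called in all 6 libraries. No E-box was present in this region, which held an NRF1 and a YY1 motif near the start site, at -10 bp and 26 bp.

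Calls at other complex I genes were less regular. Ndufb6, an accessory subunit, was called through the distal region printed above in control replicates 1 and 3, at 91.6 and 49.7, and in senescent replicates 1, 2 and 3 at 38.9, 24.8 and 33.2. Ndufs4, an accessory subunit needed for a stable complex I, was called in 4 libraries only through a region in an intron of Arl15, 274505 bp from its start site. Ndufb9, another accessory subunit, was called in 3 of 3 senescent libraries (77.8, 40.1 and 38.8) and in 0 of 3 control libraries through a region in an intron of Mtss1, 65728 bp away. The Ndufb9 promoter, shared with Tatdn1, was called in 1 control and 0 senescent libraries when any start site within 1000 bp was counted. At such distances the nearest start site is a rule of assignment and does not name a regulated gene.

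Ndufa7 was the only OXPHOS gene called in at least 2 control and 0 senescent libraries (0.917%, beside 1.64% of all genes). It was called in control replicates 2 and 3 at 99.4 and 69.2. Its start site lies 10 bp from that of Rps28, a ribosomal protein gene on the other strand, and the region chr17:33824361-33824695 between them was also called in senescent replicates 1 and 2, at 72.8 and 14.4. In those lists the peak centre fell nearer to Rps28. When any start site within 1000 bp was counted instead, 0 OXPHOS genes were called in at least 2 control and 0 senescent libraries, beside 0.394% of all genes.

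In complex III, Uqcrfs1 and Uqcrq were called in at least 4 libraries. Uqcrfs1, the Rieske iron-sulphur protein, was called in all 6 through an intergenic region 20191 bp from its start site, with rank percentiles of 21.2, 19.9 and 4.47 in control and 24.3, 9.29 and 18.1 in senescent libraries. Uqcrq, a small subunit, was called at its promoter in control replicates 2 and 3 (21.3 and 46.1) and in senescent replicates 1, 2 and 3 (93.7, 24.8 and 35.4). For both genes the groups overlapped. The Uqcrh promoter, which it shares with Lrrc41, was called in 2 senescent and 0 control libraries as a region, at 58.2 and 71.0, although the peak was nearest to Uqcrh in only 1 of them.

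Cycs (ENSMUSG00000063694), the somatic cytochrome c that carries electrons from complex III to complex IV and takes part in apoptosis, was called in all 6 libraries. Its best rank percentiles were 44.0, 50.7 and 52.3 in control and 18.97, 23.0 and 27.3 in senescent libraries. The senescent values were all better (difference -25.9, exact permutation p = 0.1, n = 3 each, adjusted p 0.527 over 1123 genes). In 5 of the 6 libraries the best peak was the distal E-box region chr6:50545419-50545717, and its own values, 44.0, 50.7 and 52.3 against 18.97, 26.5 and 27.3, were also separate. A promoter peak of Cycs was called in control replicate 3 and senescent replicate 2 only, at 58.1 and 23.0.

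In complex IV, Cox5a was the one subunit called in every library of a single group. Cox5a, a subunit that contacts the catalytic core, had a promoter peak 115 to 178 bp upstream of its start site in senescent replicates 1, 2 and 3, at rank percentiles of 40.6, 67.4 and 74.0, and no peak in any control library. The region, chr9:57520985-57521262, had no E-box. Together with Ndufb9 and Atp5j it made 3 OXPHOS genes called in at least 2 senescent and 0 control libraries (2.75%, beside 3.43% of all genes). Calls in 3 of 3 senescent and 0 control libraries were found for Cox5a and Ndufb9 (1.83%, beside 1.48%). Both shares were near those of all genes. Cox8a had peaks 98 to 158 bp upstream of its start site in 2 control libraries and 1 senescent library, all between 66.8 and 70.8.

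In ATP synthase, Atp5h and Atp5g1 were called in all 6 libraries. Atp5h, subunit d of the peripheral stalk, was called through a wide intergenic region, chr11:115412534-115414128, past the 3′ end of the gene. Its rank percentiles were 18.4, 13.4 and 3.08 in control and 22.8, 6.12 and 7.997 in senescent libraries. Atp5g1, which encodes subunit c of the proton-driven ring, was called at its promoter with 20.8, 26.4 and 9.51 in control and 94.0, 12.0 and 27.3 in senescent libraries. Senescent replicate 1 was far below the other libraries there, and the groups of both genes overlapped (exact permutation tests, n = 3 each, p = 1 for Atp5h and p = 0.4 for Atp5g1). Atp5g2, which encodes the same subunit c, was called in 2 control and 2 senescent libraries. Its best control peaks lay 2716 and 2799 bp upstream of the start site and its senescent peaks 47 and 113 bp upstream.

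Atp5l (subunit g) had promoter peaks in 2 control libraries (58.4 and 13.1) and 2 senescent libraries (18.7 and 57.4). Atp5o, the stalk protein OSCP, was called in 5 libraries, with its best peak over 30 kb upstream in each of them. Atp5j, the stalk protein known as coupling factor 6, was called in senescent replicates 1 and 2 at 58.7 and 17.0, through an E-box region in an intron of App 120013 bp away.

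Among the assembly factors, Ndufaf8 (ENSMUSG00000078572) was called in all 6 libraries through the distal E-box repeat printed above. Its rank percentiles were 28.5, 32.9 and 44.5 in control and 2.16, 0.765 and 1.71 in senescent libraries. The senescent libraries thus placed it among their best-scoring peaks and the control libraries in the middle of theirs. The difference of -33.8 percentile points was the largest among the 8 OXPHOS genes called in all 6 libraries (35.3 ± 8.25 against 1.54 ± 0.711, SD, n = 3 each, exact permutation p = 0.1, adjusted p 0.527 over 1123 genes). Senescent peaks were 799, 840 and 784 bp wide and spanned all 18 E-boxes. Control replicate 1 had 2 peaks of 131 and 173 bp with 6 E-boxes each, control replicate 2 had a peak of 252 bp with 9, and control replicate 3 had a peak of 179 bp with 6. Whether reads can be placed evenly over the repeat, or over any repeated sequence in the other regions, was not examined here. The Ndufaf8 promoter itself, shared with Tepsin, was called in control replicate 3 and senescent replicate 2 only.

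**Figure D2:**
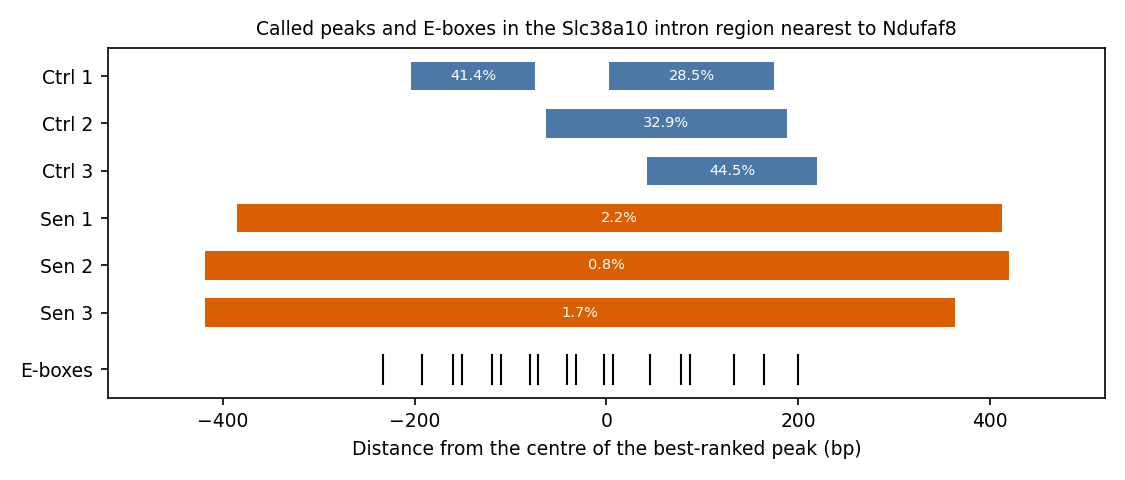
Called BMAL1 peaks (horizontal bars, labelled with their rank percentile) in the Slc38a10 intron region nearest to Ndufaf8, by library, against the distance in bp from the centre of the best-ranked peak. Black ticks mark the 18 E-boxes. The 3 senescent peaks (orange) span the whole repeat at rank percentiles of 2.16, 0.765 and 1.71, and the control peaks (blue) cover parts of it at 28.5 to 44.5.

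Ndufaf4, also an assembly factor of complex I, was called at its promoter in all 6 libraries, at 35.8, 47.2 and 26.3 in control and 54.7, 13.9 and 63.5 in senescent libraries, and the groups overlapped. Cox20 and Cox18, which help to mature the mitochondrially encoded COX2, were called in 4 libraries each. Cox20 had a promoter peak in control replicate 3 (12.9) and in senescent replicates 1, 2 and 3 (72.8, 24.2 and 71.0), and Cox18 in control replicates 1 and 3 (82.3 and 9.41) and senescent replicates 1 and 2 (90.9 and 63.0).

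Of the 8 genes called in all 6 libraries, 3 (Ndufaf8, Ndufa6 and Cycs) had better rank percentiles in every senescent than in every control library, and 0 had the reverse. Over all 1123 such genes the shares were 13.5% and 5.43%. The other 5 genes overlapped between groups. Percentiles and plain ranks both depend on list length. By the plain rank 2 OXPHOS genes (Ndufaf8 and Ndufa6) were better in every senescent library and 2 (Uqcrfs1 and Atp5g1) in every control library. Over all such genes the shares were 18.3% and 19.3%. The separation of Cycs was thus lost by plain rank.

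**Figure D3:**
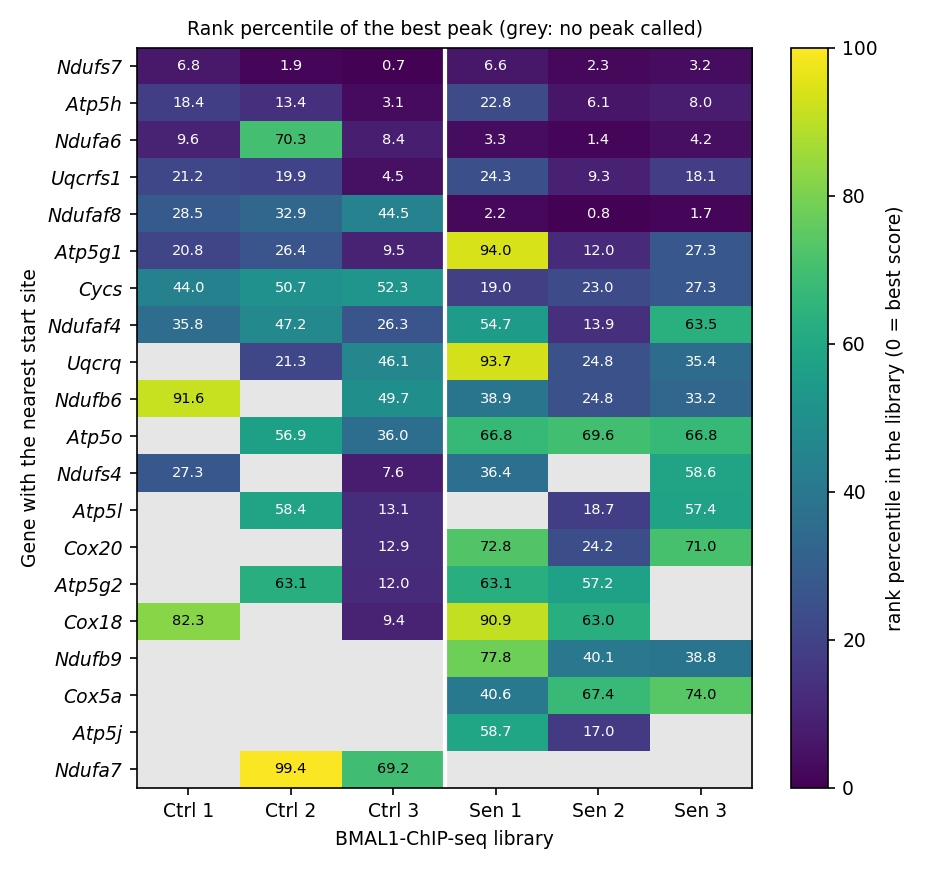
Rank percentile of the best peak of each named OXPHOS gene in each library (0, dark, is the best score of a list, and grey marks no called peak). The 16 upper genes were called in at least 4 libraries and the 4 lower ones in 2 or 3 libraries of a single group. Ndufs7 stays below 7 in all 6 libraries, and Ndufaf8 goes from 28.5 to 44.5 in control to between 0.765 and 2.16 in senescent libraries.

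The score order of OXPHOS promoter peaks as a class was compared next. Their median rank percentile was 28.3, 70.3 and 36.7 in control and 72.8, 54.7 and 67.2 in senescent libraries, while promoter peaks of all genes had medians near the middle of their lists, 46.0 ± 1.88 and 47.8 ± 0.207 (SD, n = 3 each). The OXPHOS groups overlapped through control replicate 2 (45.1 ± 22.2 against 64.9 ± 9.25, SD, n = 3 each, exact permutation test, p = 0.3). Without control replicate 2 the difference was 32.4 points and the groups were separate (p = 0.1, the smallest the exact test allows), and with lists shortened to equal length it turned to -4.46. The medians rest on 6, 11 and 33 peaks in control and 11, 29 and 14 in senescent libraries.

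To ask whether OXPHOS promoters were called where they hold an E-box, CACGTG was searched within 100 bp of each peak centre on both strands. It was found in 2 of 6, 5 of 11 and 3 of 33 OXPHOS promoter peaks of the control libraries (33.3%, 45.5% and 9.09%) and in 3 of 11, 2 of 29 and 2 of 14 of the senescent ones (27.3%, 6.90% and 14.3%). The shares averaged 29.3% ± 18.5 and 16.2% ± 10.3 (SD, n = 3 each, exact permutation test, p = 0.3), and the groups overlapped. The difference of -13.1 points was -0.876 with a window of 50 bp (8.59% and 7.71%) and -34.1 with the peaks above the median score (47.2% and 13.1%). Over promoter peaks of all genes the means were 29.9% ± 10.6 and 33.2% ± 9.71. The lowest OXPHOS shares were in the 2 longest lists, as they were among all genes, where control replicate 3 had 18.6% and senescent replicate 2 had 22.8%.

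At OXPHOS promoters the E-box was found only in regions called in at least 4 libraries. Among OXPHOS promoter regions it was present in 4 of the 9 called in at least 4 libraries (44.4%, beside 40.7% of all promoter regions called as often), namely Atp5g1, Uqcrq, Ndufaf4 and Ndufa7. Regions were judged at the centre of their best-ranked peak. The Ndufa7 region was called in 4 libraries but assigned to Ndufa7 in 2 of them. Its best-ranked peak, with the E-box, is nearest to Rps28. The 2 peaks assigned to Ndufa7 had none in the window. The E-box was present in 0 of the 40 regions called in 1 to 3 libraries, which allows a share of up to 7.5%, where 14.1% of all such regions had one. The limit takes regions as independent, but the 24 called in 1 library belong to 19 genes, and no test was made. In total 8.16% of the 49 OXPHOS promoter regions and 19.5% of all 5701 promoter regions had an E-box. Distal OXPHOS regions had one in 2 of 19 called in 1 library, 3 of 8 called in 2 or 3 and 3 of 7 called in 4 to 6, beside 8.43%, 20.5% and 34.8% of all distal regions. The share thus went up with the number of libraries in both kinds of region, and the other 5 broadly called promoter regions (Ndufs7, Ndufa6, Atp5l, Cox20 and Cox18) had no E-box in the window. That of Atp5l held one that was centred 99 bp from the middle of its best peak and ran past the window.

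**Figure D4:**
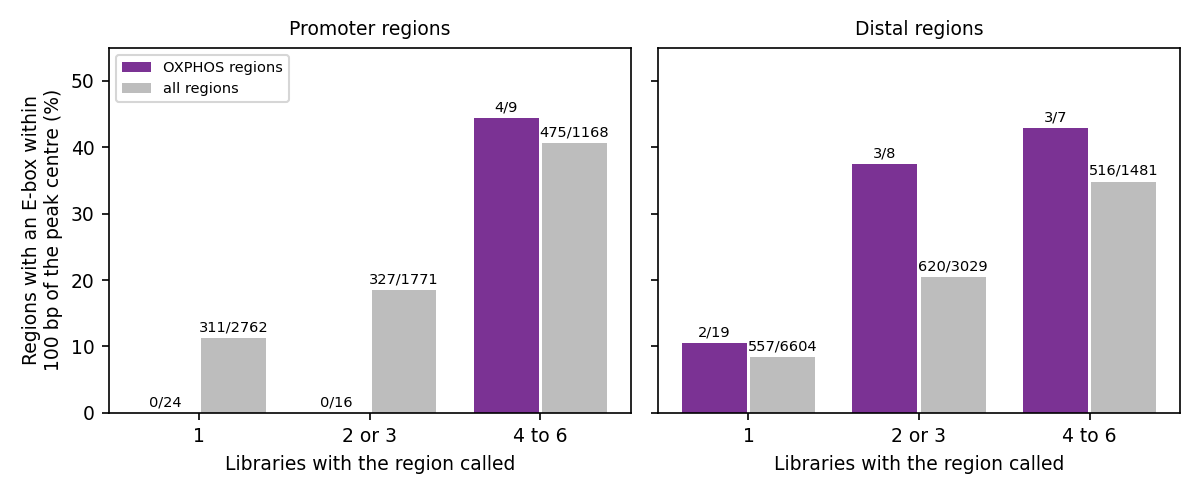
Percent of merged regions with CACGTG within 100 bp of the centre of the best-ranked peak, by the number of libraries that called the region, for OXPHOS regions (purple) and all regions (grey), at promoters (left) and distal (right). Numbers above the bars give regions with an E-box over all regions. Promoter regions of OXPHOS genes have 0 of 24 and 0 of 16 in the first 2 classes and 4 of 9 in the last.

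The E-box was about as frequent in OXPHOS promoters as in all promoters, and motifs of NRF1, YY1 and ETS factors were more frequent, with no test made. In the 300 bases from 250 bp upstream to 50 bp downstream of the outermost start site, CACGTG was present in 8 of the 109 OXPHOS promoters (7.34%, beside 7.78% of all 21851 promoters). The NRF1 motif (GCGC, any base and TGCGC) was present in 20 (18.3%, beside 6.18%), the YY1 motif AAGATGGC in 11 (10.1%, beside 2.96%) and the ETS motif CCGGAAGT in 10 (9.17%, beside 4.93%). The AP-1 motif, TGACTCA or its reverse complement TGAGTCA, was present in 2 (1.83%, beside 4.45%). OXPHOS promoters held a median of 18 CpG in these 300 bases, beside 12 in all promoters. Motifs were matched letter by letter on both strands, so a match is a description of the sequence.

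The called and the uncalled OXPHOS promoters were then set side by side. NRF1 was present in 8 of the 39 promoters with a call (20.5%) and in 12 of the 70 without (17.1%), YY1 in 5 and 6 (12.8% and 8.57%), ETS in 6 and 4 (15.4% and 5.71%), and the E-box in 5 and 3 (12.8% and 4.29%). Among all genes the shares of called and other promoters were 10.0% and 5.12% for NRF1, 5.002% and 2.40% for YY1, 8.57% and 3.93% for ETS and 17.2% and 5.16% for the E-box. Within 100 bp of the peak centre, 6 of 49 OXPHOS promoter regions held an NRF1 motif (12.2%, beside 5.53% of all promoter regions) and 6 a YY1 motif (12.2%, beside 2.67%), while 3 held an ETS motif (6.12%, beside 5.65%). AP-1, the factor named in the study's title, had a motif there in 1 region (Uqcrh, 2.04%, beside 4.81%). The best peak of that region, in senescent replicate 2, is nearest to Lrrc41, at 78 bp. Of the promoter peaks assigned to OXPHOS genes, 0 held an AP-1 motif in any library, beside 3.49% to 5.16% of the promoter peaks of all genes. Distal OXPHOS regions of Atp5o, Uqcr10, Cox6c, Sdhd and Atp5l also held an AP-1 motif within 100 bp of the best peak centre. No share over all distal regions was computed for AP-1.

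OXPHOS genes often share a promoter with a neighbour. Another gene's start site lay within 1000 bp for 35 of the 109 (32.1%), beside 11.8% of all genes. When a peak within 1000 bp of any start site was counted, 42.9% of these 35 and 41.9% of the other 74 were called in at least 1 library. Among all genes the shares were 47.9% and 20.3%. The OXPHOS share was thus above that of all genes for genes that stand alone and below it for genes with a close neighbour, differences that were not tested.

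Genes that serve the same pathway outside the symbol rule were described in the same way, beside all genes, of which 36.4% were called at least once, 11.8% in at least 4 libraries and 3.43% in at least 2 senescent and 0 control libraries. Of 29 other assembly factors, 18 were called at least once and 5 in at least 4 libraries (Coa7, Ecsit, Lrpprc, Uqcc2 and Uqcc3). Among 17 regulators of mitochondrial biogenesis, 11 were called at least once and 7 in at least 4 libraries, among them Esrra, Ppargc1a (PGC-1α), Polg (the mitochondrial DNA polymerase) and Yy1, while Nrf1, Gabpa and Tfam had no call. Ppargc1a had a promoter peak in 0 libraries, and its best peaks lay at -41825 to -53883 bp from the start site. For 19 genes of the pyruvate dehydrogenase complex, pyruvate carboxylation and the TCA cycle, 9 were called at least once, 2 (Pcx and Pdhb) in at least 4 libraries, and 2 (Idh2 and Ogdh) in at least 2 senescent and 0 control libraries. Among 23 genes of coenzyme Q synthesis, electron entry and carriers the counts were 11, 7 and 2, the last being the phosphate carrier Slc25a3 and the ADP/ATP carrier Slc25a4.

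Over all 88 of these genes, 21 were called in at least 4 libraries (23.9%, beside 11.8% of all genes and 14.7% of the OXPHOS genes), 5 in at least 2 senescent and 0 control libraries (5.68%, beside 3.43%), and 0 in at least 2 control and 0 senescent libraries (beside 1.64%). These counts use the nearest start site at any distance. Ppargc1a and Gpd2, for example, were called in 6 libraries with a promoter peak in 0. Per library, 15, 15 and 34 were called in control and 30, 39 and 21 in senescent libraries (24.2% ± 12.5 and 34.1% ± 10.2, SD, n = 3 each, beside 15.2% ± 8.85 and 19.2% ± 6.44 of all genes), and the groups overlapped.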

How the data were processed

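BMAL1-ChIP-seq peak lists of 3 control and 3 senescent MAF libraries were analysed, and the 6 input libraries were not used here. Chromatin was fixed in 1% formaldehyde for 10 min, sonicated, precipitated, and tagmented on the beads with Tn5. The labels name a Cell Signaling BMAL1 antibody and the methods an Abcam one, so its supplier is unclear. The authors mapped paired reads to mm10 with the Burrows-Wheeler Aligner, discarded pairs without a unique end and PCR duplicates (Picard), and called peaks per library with MACS2 at an FDR of 1% or less. The deposited score was read as −log10 of the q-value, inferred from a minimum of 2.02 to 2.12 in each list. It is not normalized between libraries and was used only for ranks within a list. A read-based test was not possible from peak lists. The file headers name a single sequencing lane.

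Start sites were those of protein-coding transcripts in GENCODE M21 (basic), and sequence came from the RefSeq copy of GRCm38. A peak was assigned to the start site nearest to its midpoint, with ties given to both genes. Peaks on the mitochondrial chromosome were left out of all gene counts. Group means were compared by exact permutation (two-sided, 20 arrangements). Shares carry 95% Wilson intervals where plotted. The limit given for a share of 0 uses 3 counts, and both cover counting error only. Python 3.11.15, numpy 2.4.6, pandas 2.3.3 and scipy 1.17.1 were used, and the assignment and the permutation test were tested on simulated data.

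Groups and replicate numbers came from the sample titles. Members, motifs and the 4 lists of related genes were chosen with earlier results of these data known. Genes were named where they were called in at least 4 libraries, or in at least 2 of one group and 0 of the other, with 8 genes named whatever their calls (Ndufs1, Sdha, Uqcrc1, Cyc1, Cycs, Cox4i1, Atp5a1 and Atp5b). Uqcrh, Cox8a, single-library genes and members of the lists of related genes were named after their values had been seen. Alternatives tried were peaks above the median score, lists of equal length, the 5′ end of each gene, any start site within 1000 bp, a promoter distance of 3000 bp, a motif window of 50 bp, each library left out in turn and a replicate block.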

Additional observations from a re-analysis of the deposited data

Results flagged for a closer look

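Peaks on the mitochondrial chromosome, which carries the OXPHOS subunits that the nuclear genes do not encode, were outside all comparisons of the report. Senescent replicate 2 had 19 of them, and the 3 control libraries had 3, 4 and 3. The other senescent libraries had 1 and 2. The count was flagged because it lies above every control library. It comes from 1 library, which also has the second longest list (9805 peaks). Control replicate 3, with the longest list (10601 peaks), had 3, and the part of list length was not tested.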

How the results depend on the processing

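Of 96 alternative values of 8 results, 68 kept their direction and their side of the threshold (counts stayed within 1.5 times), and 1 difference, in genes with a peak above the median score, was 0. Here a difference counts as past the threshold when the groups do not overlap. Several directions depended on list length. With lists of equal length the difference between groups (senescent minus control) in the share of OXPHOS genes with a peak turned to -0.917 percentage points, that with a promoter peak to -1.22, and the median rank percentile to -4.46. With the peaks above the median score the last 2 were -0.917 and -5.66. With the 5′ end of each gene as its start site, the ratio of the OXPHOS share to that of all genes turned to 0.0494. The ratio of promoter shares lost its separation at 3000 bp (-0.329). Genes called in at least 2 senescent and 0 control libraries were 1 with the peaks above the median score and 1 with equal lists, against 3. The single gene called in at least 2 control and 0 senescent libraries gave 0 with the peaks above the median score, 0 with any start site within 1000 bp, and 0 without the longest list of each group. That last alternative was added after seeing the data. It also separated the groups in the share with a peak (6.88), with a promoter peak (3.67) and in the E-box share of promoter peaks (-18.6), each with the smallest p that 2 libraries a group allow, 0.333 (exact permutation test). The cause of these differences was not tested.

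With 1 library left out at a time, the difference in genes with a peak ran from 0.306 to 10.9 percentage points and was largest without control replicate 3. That in promoter peaks ran from -2.29 (without senescent replicate 2) to 8.10 (without control replicate 3), and was also below 0 without control replicate 1 or 2. The ratio ran from -0.0705 to -0.00872 and that of promoter shares from -0.492 to -0.275. The E-box share ran from -23.2 (without control replicate 3) to -5.06, and the median rank percentile from 11.4 to 32.4 (without control replicate 2). The senescent-only count ran from 2 to 5 (without control replicate 3) and the control-only count from 0 to 2 (without senescent replicate 2).

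The deviations of calls from the group mean had correlations of 0.144, -0.124 and -0.0868 between same-numbered libraries. The highest of all, 0.218, was between control replicate 3 and senescent replicate 2, the longest list of each group. List length was not removed from these correlations, so they cannot decide whether the numbers mark pairs. The numbers were not taken as pairs. With a replicate block the differences were unchanged in size, at 4.28, 2.14, -0.0394, -13.1, 19.8 and -0.362, with exact p-values between 0.25, the smallest possible, and 0.75. Unknown depth limits all counts.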
